A study of Homo sapiens with 18 samples.

Results

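Focal adhesion and LIM domain adaptor genes encode the proteins that couple integrins to the actin cytoskeleton and carry signals from that junction. The group held 45 genes chosen by symbol from the table of gene-level results, which listed 21944 genes in all. Of these 45 members, 44 were listed at 3, 6 and 24 h, and *TNS4*, a tensin, was not listed. Human embryonic stem cell-derived pancreatic progenitors at day 19 were detached with accutase and reseeded on wells coated with laminin-411 (LN411) or fibronectin (FN), without other differences between the groups in the labels. RNA was collected 3, 6 or 24 h later, with 3 samples in each of 6 groups and 18 samples in all. The labels name HUES4 as the cell line, whereas the growth protocol and the study's description of this experiment name the SA121-derived NGN3-GFP reporter line. Either is a single embryonic stem cell line, and the study describes the 3 samples of a group as biological replicates, while the labels do not say whether they came from separate differentiations. The comparison addressed how gene expression changes between exposure to LN411 and the choice of the endocrine fate.

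Integrins hold the cell to its matrix from outside, and talins and kindlins bind their cytoplasmic tails and switch them to the binding state. Vinculin, parvins and α-actinins tie this complex to actin filaments, while FAK, SRC, p130Cas and paxillin form its signalling layer. Many proteins of the site carry LIM domains, paired zinc fingers that serve as protein docks, and several of them are recruited when actin fibres are under tension and can also enter the nucleus. Genes of the contractile cytoskeleton are often transcribed by serum response factor, which binds a promoter element called the CArG box, and by TEAD factors with their partner YAP.

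The values were log2 fold changes of LN411 over FN with their standard errors (SE) from the authors' fit, where a value of −1 is a reduction to 50% of the level on FN. Genes said to fall or rise were lower or higher on LN411 than on FN at the same time. Whether levels changed over time on LN411 or on FN was not examined. A gene was called when its Wald test, with Benjamini-Hochberg adjustment over all tested genes of that time, gave an adjusted p under 0.05. Levels are mean normalized counts over all 18 samples, and values of single samples and the depth of single libraries were not used here. The mean normalized counts of all genes listed at 24 h summed to 53193826, of which the members held 333832. The labelled cell type was checked against its markers, and all 13 pancreatic progenitor markers were listed, with mean normalized counts from 12.5 for *PTF1A* to 135959 for *GP2* and a median of 5446, with *PDX1* at 12933. The 6 hepatic markers had mean counts from 640 for *ALB* to 141038 for *FGB*, with a median of 20200, above that of the progenitor markers. The mesenchymal or stromal markers listed at 24 h ranged from 11.5 for *THY1* to 45110 for *COL1A2*, with a median of 277. Levels alone thus did not set the labelled cell type apart from other lineages. Of the 7 undifferentiated stem cell markers, *POU5F1* and *NANOG* were not listed, and the others ranged from 9.44 for *SOX2* to 10333 for *LIN28A*.

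The typical level of the members was above that of all genes. Per kilobase of the longest transcript, the median mean normalized count was 575 over the members and 151 over all genes. *FLNA* was the highest member on this scale with 11406 per kb and *LIMS2* the lowest with 12 per kb. The median SE of the members at 24 h was 0.058, with a range from 0.034 to 0.314, and the largest errors were those of *ILK* and *LIMS2*, the members with the fewest reads.

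At 24 h, 30 of 44 members were lower on LN411 and 3 were higher, with a median log2 fold change of −0.38. Of all 19569 genes tested at 24 h, 12.8% were lower and 16.7% were higher, with a median of 0.01. Centring on the median of genes with a mean count that reached 1000 turned this split from 2512 lower and 3268 higher genes to 2873 and 2840, and left 30 members lower. The lower members included the actin cross-linkers *ACTN4* and *FLNA*, the LIM proteins *CSRP1*, *TGFB1I1*, *AJUBA*, *PDLIM1*, *FHL2* and *ZYX*, and the linkers *VCL*, *TLN1* and *TLN2*. The 3 higher members were *EVL*, *LIMD1* and *KANK1*, each by less than 20%. Since well expressed genes are called more easily, the same count was taken over genes whose mean normalized count reached 1000, where 22 of 31 members and 18.2% of 7968 genes were lower. A reduction of at least 0.5 on the log2 scale was called for 16 of 44 members (36.4%) and for 890 of 19569 genes (4.55%).

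At 3 h few differences between the substrates were seen. *AJUBA* was lower, and none of the other 43 tested members was called in either direction. Of all genes tested at 3 h, 0.2% were lower and 0.183% were higher, a split of 35 to 32 genes that became 46 to 23 with centring on the median of genes whose mean count reached 1000. The 95% confidence interval of the log2 fold change included 0 for 42 of 44 members, and the unadjusted p was under 0.05 for 2 of them, *AJUBA* and *LPP*. Leaving *ILK* aside, which had few reads, no member differed by more than 0.24 on the log2 scale.

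At 6 h, 5 members were lower, namely *AJUBA*, *FHL2*, *LPP*, *PXN* and *VCL*, and *SRC* was higher. The share of all genes tested at 6 h was 3.33% lower and 4.9% higher. Centring the fold changes on the median of genes whose mean normalized count reached 1000 turned this split from 431 lower and 634 higher genes to 624 and 371, and raised the members lower from 5 to 9. Among genes whose mean normalized count reached 1000, the uncentred share was 4.35% lower, against 4 of 31 members. *FERMT1*, *ILK* and *LIMS2* had no adjusted p at 6 h, because the filter on low counts removed genes below a mean of 108. None of the members reached a change of 0.5 on the log2 scale at 6 h. Of the 30 members lower at 24 h, 23 had a value below 0 at 6 h (76.7%) and 14 at 3 h (46.7%). Of all genes lower at 24 h, these shares were 70.5% at 6 h and 55.1% at 3 h, so that the members' shares lay near those of other genes. When the Wald statistic was read from a t distribution (12 degrees of freedom), *AJUBA* was the one member lower at 6 h and *SRC* was not called (adjusted p = 0.0759). With this setting, 151 of all genes were lower and 187 higher at 6 h, against 431 and 634 in the main test.

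**Figure D1:**
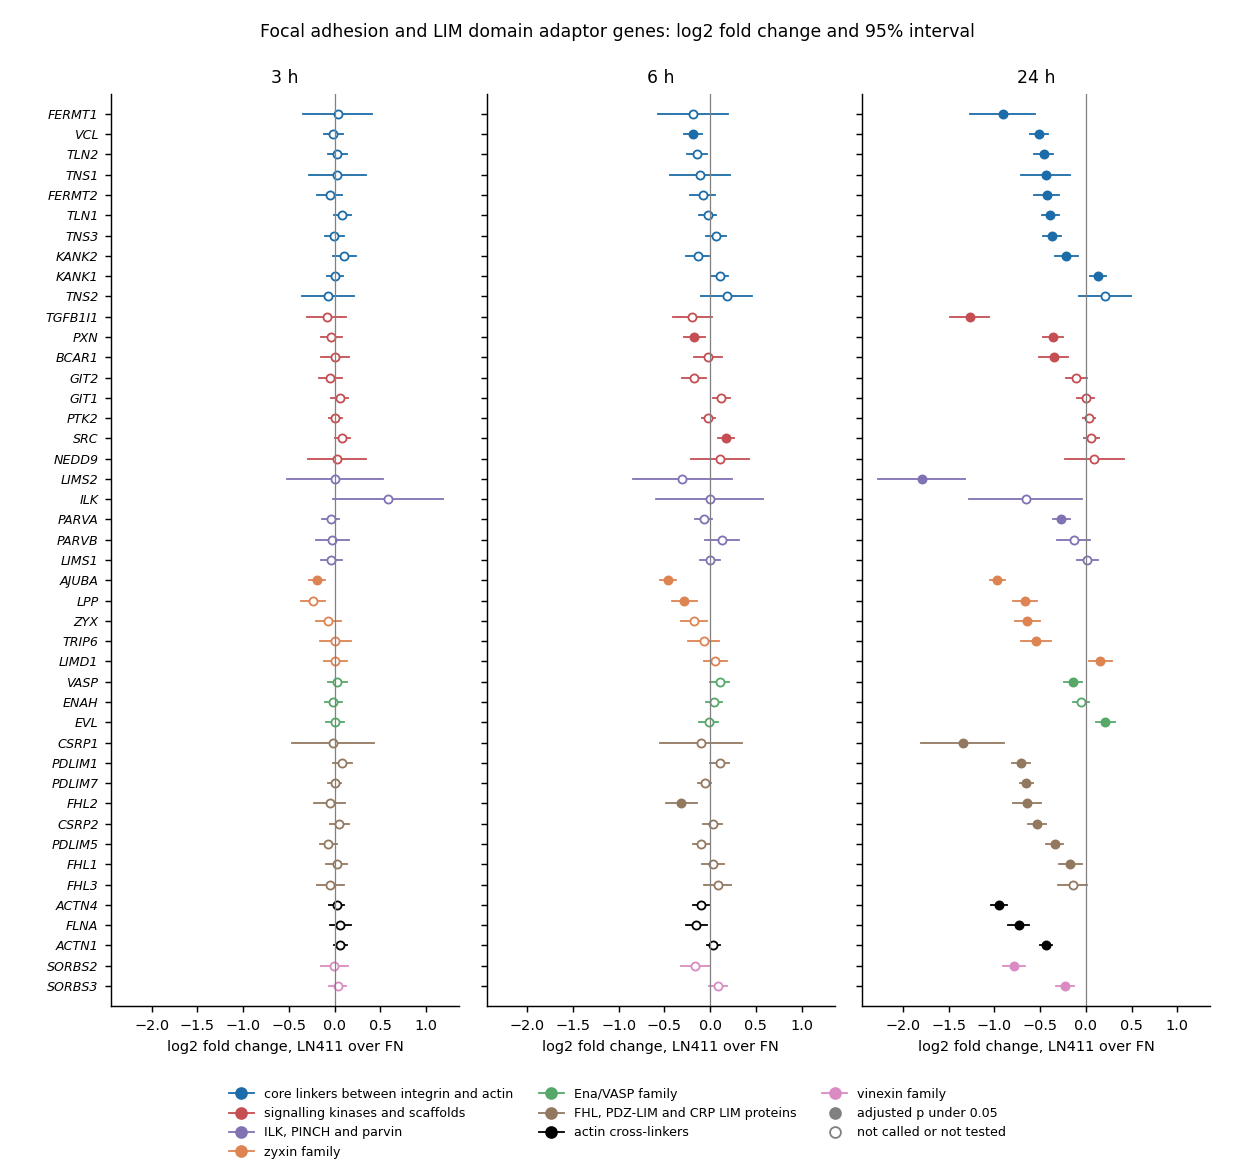
Log2 fold change of LN411 over FN for the 44 listed members at 3, 6 and 24 h, with 95% confidence intervals as lines, colours for the role of the protein and filled points for an adjusted p under 0.05. Apart from *ILK* at 0.58, the points lie close to 0 at 3 h, and 36 of 44 lie below 0 at 24 h, with *LIMS2* at −1.80 and *EVL* at 0.21 as the extremes.

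The change between times was tested directly, as the difference of the log2 fold changes over its SE, with adjustment across every gene the table lists at the pair of times. Between 3 and 6 h, the LN411 effect became lower for *AJUBA* and higher for no member, against 0.146% of genes lower and 0.111% higher. Between 6 and 24 h it became lower for 26 members and higher for *EVL*, against 6.51% of genes lower and 6.24% higher. Between 3 and 24 h, 28 members became lower and *EVL* higher, against 8.18% of genes lower and 8.85% higher. Counted without a test, 37 of 44 members (84.1%) were more negative at 24 h than at 6 h, as were 48.8% of 18975 genes listed at each of these times. These tests treat the times as independent, and shared differentiation batches, which the labels do not give, would not be accounted for.

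Core linkers between integrins and actin were lower at 24 h in 8 of 10 listed genes, with a median log2 fold change of −0.41. Vinculin (*VCL*), which binds talin and actin under force, was the linker with the highest mean normalized count (32002). At 3 h it had a log2 fold change of −0.01 ± 0.05 (SE). Lower values of −0.18 ± 0.05 at 6 h (adjusted p = 0.00702) and −0.51 ± 0.05 after 24 h (adjusted p = 5.21e-22) followed. This was a reduction of 29.7% at 24 h, with a 95% interval from 24.7 to 34.4%. The 6 h call of *VCL* was lost when trends with GC content and transcript length were removed (−0.14, adjusted p = 0.0877). Both talins, the adaptors that activate integrins, fell at 24 h, *TLN1* by 23.7% (95% interval 18.5 to 28.5%) and *TLN2* by 27.4% (21.9 to 32.5%). The kindlins among the members, which assist talin, also fell. *FERMT1* with a mean count of 108 fell by 46.8% (32 to 58.4%), and *FERMT2* with a mean count of 4827 fell by 25.7% (18.3 to 32.5%). The kindlin gene *FERMT3*, which is not a member, had 0.03 ± 0.25 at a mean count of 90.3 and was not called. Among tensins, which bind integrin tails and actin, *TNS3* had −0.37 ± 0.05 and *TNS1* −0.44 ± 0.14, both called, and *TNS2* had 0.21 ± 0.15 with an interval from −0.08 to 0.50.
The KANK proteins, which bind talin and connect the adhesion site to microtubule ends, were called in opposite directions at 24 h. *KANK2* fell by 13.8% (adjusted p = 0.00357), and *KANK1* rose by 9.51% (adjusted p = 0.0125). The interval of *KANK1* reached from 0.05 to 0.22 on the log2 scale, and its call did not pass an adjusted p of 0.01.

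Of the signalling kinases and scaffolds, 3 of 8 genes were lower at 24 h, with a median of −0.05. *TGFB1I1*, which encodes the paxillin relative HIC-5 (chr16:31471585-31477960, plus strand, GRCh38), had the lowest value of these genes. It had log2 fold changes of −0.08 ± 0.11 and −0.20 ± 0.11 at 3 and 6 h, and of −1.27 ± 0.11 at 24 h (adjusted p = 9.5e-30), a reduction of 58.5% with an interval from 51.9 to 64.2%. Its values at 3 and 6 h were not called, and the difference between 6 and 24 h was −1.07 (adjusted p = 2.18e-10). Paxillin itself (*PXN*), a docking protein for FAK and vinculin, was lower at 6 h with −0.17 ± 0.06 (adjusted p = 0.0391), and lower again after 24 h with −0.36 ± 0.06 (adjusted p = 1.83e-09). Its 6 h call did not pass 0.01 and was lost without the filter on low counts (adjusted p = 0.0613) and with the t distribution (adjusted p = 0.156). Of the exonic bases of *PXN*, 27.2% overlap other genes, mostly its antisense gene *PXN-AS1*, and since the use of strand in counting is not given in the sources used here, reads of these genes could not be told apart. *BCAR1*, encoding the p130Cas scaffold, fell by 21.6% at 24 h (12.7 to 29.6%).

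The kinases at the centre of this layer showed no such reduction. *PTK2*, encoding FAK, had log2 fold changes of 0.01, −0.02 and 0.03 at 3, 6 and 24 h, each with an SE of at most 0.04, and its interval at 24 h reached from −0.03 to 0.10. *SRC* was higher at 6 h with 0.17 ± 0.05, a rise of 12.3%, and had 0.09 ± 0.04 at 3 h and 0.06 ± 0.04 at 24 h without a call. The difference of *SRC* between 6 and 24 h was −0.11 and was not called (adjusted p = 0.3). *NEDD9*, a p130Cas relative with the highest mean count of the signalling kinases and scaffolds (9139), had 0.09 ± 0.16 at 24 h, and its wide interval from −0.23 to 0.41 allows changes in either direction. *GIT1* and *GIT2*, scaffolds of the paxillin and PIX complex, had values of 0.00 ± 0.05 and −0.10 ± 0.06 at 24 h and were not called.

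In the ILK, PINCH and parvin complex, which links integrin β tails to actin, 2 of 5 genes were lower at 24 h. *LIMS2*, encoding PINCH-2 (chr2:127638381-127681786, minus strand), had the lowest log2 fold change of all members, with −1.80 ± 0.24 at 24 h (adjusted p = 2.36e-12). It fell by 71.2% with an interval from 60.0 to 79.3%, at a mean normalized count of only 57.9. Its paralog *LIMS1*, encoding PINCH-1, had a mean count of 2986 and a log2 fold change of 0.02 ± 0.06 (interval −0.10 to 0.13) at 24 h. *PARVA*, with a mean count of 4073 the highest of the complex before correction for length, fell by 17.1% (11.7 to 22.2%), and *PARVB* had −0.13 ± 0.09 without a call. *ILK* was listed with a mean count of 32.5 and log2 fold changes of 0.58 ± 0.31, −0.01 ± 0.30 and −0.66 ± 0.31, of which those at 3 and 24 h were not called and that at 6 h was not tested. Its difference between 3 and 24 h of −1.24 was called lower (adjusted p = 0.0314), which makes it one of the 28 members above. Other genes cover 78.5% of the exonic bases of *ILK*, mainly *TAF10* on the opposite strand with 2374 bases, so its count need not reflect the level of its mRNA.

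The zyxin family of LIM proteins, which move between adhesion sites, stress fibres and the nucleus, included the one member called at 3 h. *AJUBA*, also known as a binding partner of the LATS kinases of the Hippo pathway (chr14:22971177-22982551, minus strand), was the one member called at all 3 times. At 3 h it was lower by a log2 value of −0.19 ± 0.04 (adjusted p = 0.00619). The value was −0.46 ± 0.04 by 6 h (adjusted p = 9.97e-23) and −0.97 ± 0.04 by 24 h (adjusted p = 3.32e-105). The successive differences of −0.27 (adjusted p = 0.00881) and −0.51 (adjusted p = 4.12e-14) were both called, and the reduction at 24 h was 48.8% (45.7 to 51.8%). With the t distribution its 3 h call (adjusted p = 0.44) and that of its difference between 3 and 6 h were lost. *LPP*, a zyxin relative at the ends of actin bundles, had −0.24 ± 0.07 at 3 h, just outside the threshold (adjusted p = 0.0847). It was called with −0.28 ± 0.07 at 6 h (adjusted p = 0.00134), and after 24 h with −0.67 ± 0.07 (adjusted p = 2.8e-21). Its 3 h value passed the threshold when fold changes were centred on the median of genes with a mean count of at least 1000 (adjusted p = 0.0497). *ZYX* and *TRIP6*, which were not called at 3 or 6 h, fell by 35.8% (29.5 to 41.6%) and 31.6% (23.3 to 39.0%) at 24 h. In contrast, *LIMD1*, another LATS-binding member of the family, rose by 11.7% at 24 h (adjusted p = 0.0366). The call of *LIMD1* did not pass an adjusted p of 0.01, and 24.9% of its exonic bases overlap *LIMD1-AS1* on the opposite strand.

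The Ena/VASP proteins, which lengthen actin filaments at adhesion sites and at the leading edge, showed small changes of both signs. *EVL* rose by 16.0% at 24 h (log2 fold change 0.21 ± 0.05, adjusted p = 0.000221) and had values of 0.00 and −0.02 before. *VASP* fell by 9.52% at 24 h (adjusted p = 0.0181), which did not pass 0.01, and its value at 6 h was 0.10 ± 0.05 without a call. *ENAH*, the family member with the highest mean count (18637), had −0.05 ± 0.05 at 24 h with an interval from −0.14 to 0.04.

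**Figure D2:**
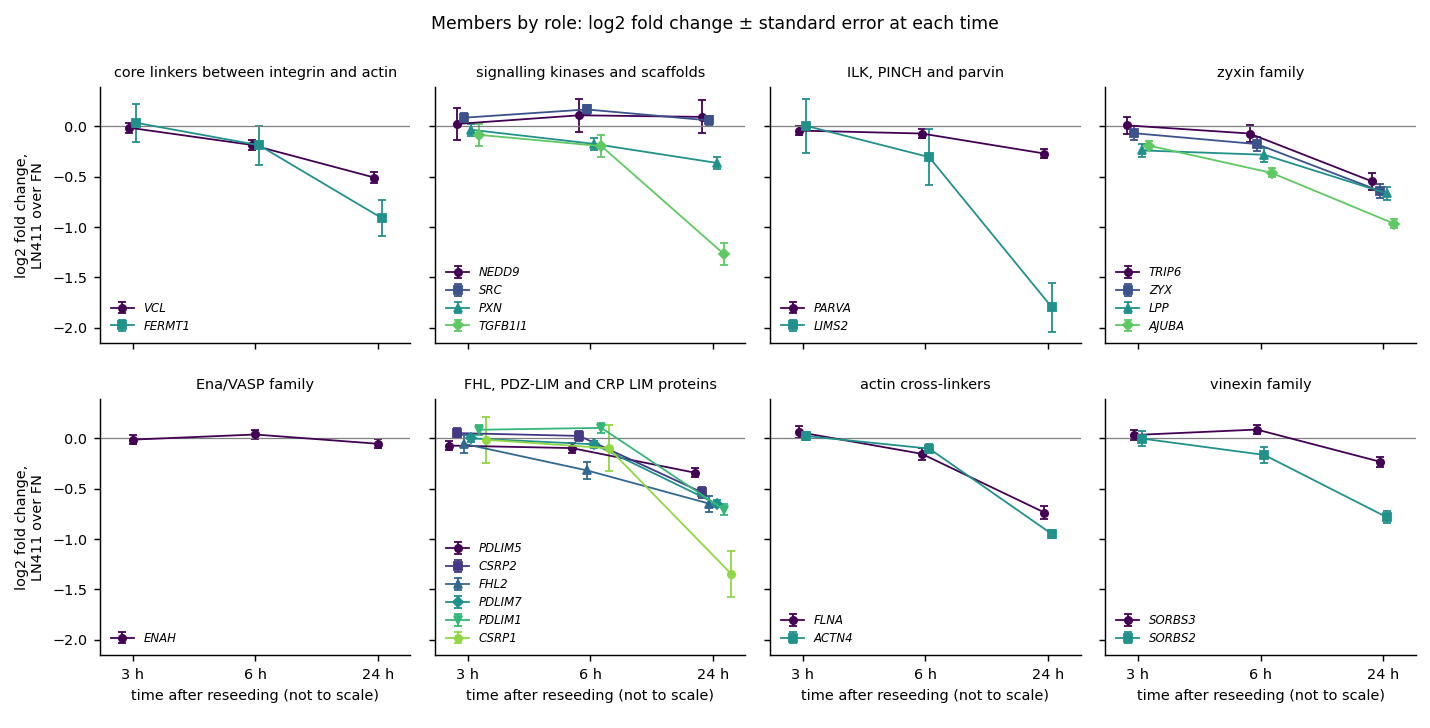
Log2 fold change of LN411 over FN with SE bars at 3, 6 and 24 h for 23 members, in panels by role (time not to scale). *AJUBA* falls at each step, *VCL*, *PXN*, *LPP* and *FHL2* were also lower at 6 h, and *SRC*, *NEDD9* and *ENAH* stay within 0.2 of 0.

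FHL, PDZ-LIM and CRP proteins, small LIM adaptors that bind actin or α-actinin, were lower at 24 h in 7 of 8 genes, with a median of −0.59. *CSRP1* (chr1:201483530-201509456, minus strand), a cytoskeletal LIM protein known from smooth muscle, fell most, by 60.7% with an interval from 46.4 to 71.2%. Its log2 fold changes were −0.01 ± 0.23, −0.10 ± 0.23 and −1.35 ± 0.23 at 3, 6 and 24 h, and the difference between 6 and 24 h was −1.25 (adjusted p = 0.00176). The SE of *CSRP1* was large for a gene with a mean count of 4796, against 0.04 for *PDLIM7* with a mean count of 5216. *CSRP2* had 0.05, 0.03 and −0.54 with SEs of 0.05, and fell by 31.0% at 24 h (26 to 35.7%). *PDLIM7*, encoding enigma, fell by 36.3% (33.1 to 39.3%) and *PDLIM1* by 38.8% (34.3 to 42.9%) at 24 h. Neither was called at 3 or 6 h, where *PDLIM1* had values of 0.09 ± 0.05 and 0.11 ± 0.05. *PDLIM5*, with a mean count of 9993 the highest of this set before correction for length, fell by 21.0% (15.7 to 25.9%).
*FHL2*, a LIM adaptor and coactivator known as a target of serum response factor (chr2:105357712-105438513, minus strand), was already lower at 6 h. From a log2 fold change of −0.05 ± 0.09 at 3 h, the value moved to −0.32 ± 0.09 by 6 h (adjusted p = 0.00669), and to −0.65 ± 0.08 by 24 h (adjusted p = 2.71e-15). The related *FHL1* had −0.17 ± 0.06 with a call that did not pass 0.01 (adjusted p = 0.027), and *FHL3* −0.14 ± 0.08 without one at 24 h.

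Actin cross-linkers, among them the member with the highest count, were all 3 lower at 24 h. Filamin A (*FLNA*, chrX:154348524-154374634, minus strand) had log2 fold changes of 0.06 ± 0.06, −0.15 ± 0.06 and −0.74 ± 0.06, a reduction of 40% at 24 h (34.9 to 44.7%). *ACTN4* (chr19:38647649-38731589, plus strand), an α-actinin of stress fibres and the cortex, had 0.02 ± 0.04, −0.10 ± 0.04 and −0.95 ± 0.04, a reduction of 48.2% (45.1 to 51.2%). The other non-muscle α-actinin, *ACTN1*, fell by 25.8% (22.3 to 29.2%). The values of *FLNA* and *ACTN4* at 6 h were not called, with adjusted p-values of 0.0907 and 0.139.

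In the vinexin family, adaptors that bind vinculin, both genes were lower at 24 h. *SORBS2* had 0.00 ± 0.08, −0.16 ± 0.08 and −0.78 ± 0.06 and fell by 41.9% at 24 h (36.8 to 46.6%). *SORBS3*, encoding vinexin, had 0.03 ± 0.05, 0.09 ± 0.05 and −0.23 ± 0.05, a reduction of 14.7% at 24 h (8.72 to 20.3%).

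**Figure D3:**
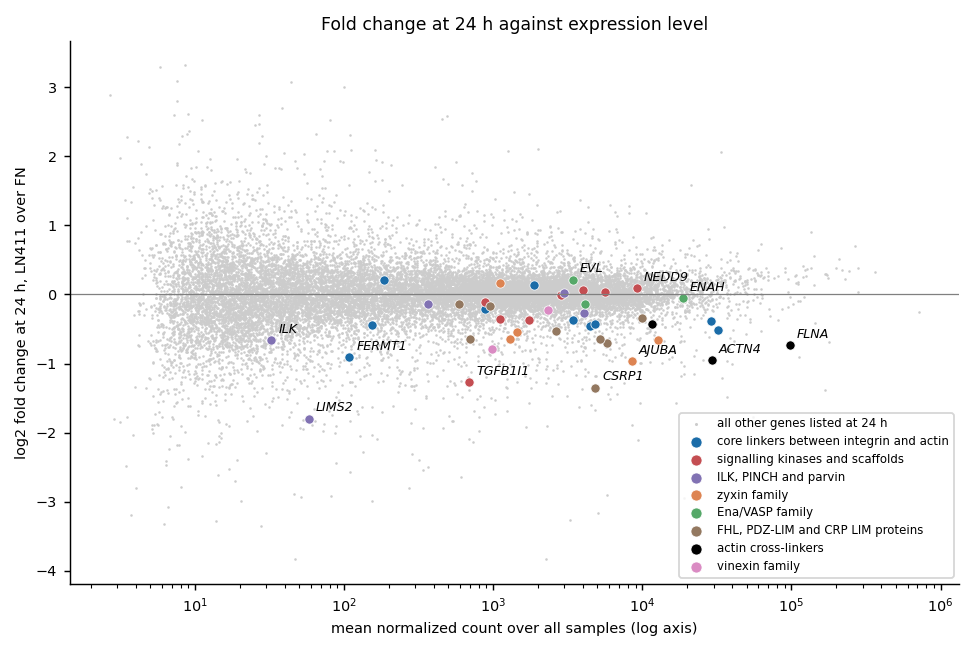
Log2 fold change at 24 h against the mean normalized count over all samples (log axis), with members coloured by role and all other listed genes in grey. The member counts range from 32.5 for *ILK* to 97419 for *FLNA*, and 36 of the 44 members lie below 0.

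The promoters of the members were read for the CArG box (CC, then 6 bases that are each A or T, then GG) and for the TEAD motif GGAATG or its reverse complement CATTCC, in windows from 250 bases before to 50 after each RefSeq start on GRCh38.p14. Windows were found for 38 of 45 members, with 101 windows in all, since many genes have several starts. A CArG box was present in 8 of 101 windows (7.92%), compared with 1.29% of all 35116 windows of the same length and 1.17% of the 18991 windows of genes in the table. The TEAD motif was present in 14 of 101 windows (13.9%), compared with 14.0% of all windows and 11.7% of those of genes in the table. The 6 members with a CArG box in a window were *TGFB1I1*, *LPP*, *FHL1*, *FHL2*, *ACTN1* and *FLNA*, and all 6 were lower at 24 h, as were 21 of the 32 members with windows but no box. For the TEAD motif these counts were 11 of 12 and 16 of 26. Over all genes tested at 24 h, 12.8% were lower. This share was not counted for all genes with and without a box or motif, and the differences were not tested. The boxes of *TGFB1I1*, *LPP*, *FHL1* and *ACTN1* lay in windows of starts further into the gene, and the windows of their earlier starts held none. Which starts these cells use was not examined. A pair of overlapping windows of *FHL2* share a box, a pair of overlapping windows of *LPP* share a TEAD motif, and a match of letters is a description that does not show binding.

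The windows of the members that were called at 6 h or fell by at least 0.5 on the log2 scale at 24 h and held a CArG box are printed here, 5′ to 3′ on the strand of the gene, to show where the box lies. A further *FHL2* window, which overlaps the first and holds the same box, is left out. Distances are to the start of the printed window, which need not be the first start of the gene. Capitals mark the CArG box and, in *LPP*, also the TEAD motif.
*FHL2*, chr2:105438464-105438763, minus strand, box beginning 101 bases before the start: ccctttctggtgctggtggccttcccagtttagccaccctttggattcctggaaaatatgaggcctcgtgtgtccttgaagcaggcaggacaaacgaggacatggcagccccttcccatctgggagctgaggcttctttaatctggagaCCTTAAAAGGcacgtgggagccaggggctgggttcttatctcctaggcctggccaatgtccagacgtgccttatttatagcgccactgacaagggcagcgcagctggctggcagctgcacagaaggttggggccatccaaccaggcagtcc
*FHL2*, chr2:105399002-105399301, minus strand, box beginning 59 bases before the start: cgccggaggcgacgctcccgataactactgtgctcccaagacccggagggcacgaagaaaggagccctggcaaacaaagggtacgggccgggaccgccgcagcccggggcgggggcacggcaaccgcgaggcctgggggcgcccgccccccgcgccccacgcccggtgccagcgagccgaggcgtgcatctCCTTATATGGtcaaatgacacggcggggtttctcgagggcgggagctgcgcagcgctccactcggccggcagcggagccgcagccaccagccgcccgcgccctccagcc
*LPP*, chr3:188212462-188212761, plus strand, box beginning 183 and TEAD motif 44 bases before the start: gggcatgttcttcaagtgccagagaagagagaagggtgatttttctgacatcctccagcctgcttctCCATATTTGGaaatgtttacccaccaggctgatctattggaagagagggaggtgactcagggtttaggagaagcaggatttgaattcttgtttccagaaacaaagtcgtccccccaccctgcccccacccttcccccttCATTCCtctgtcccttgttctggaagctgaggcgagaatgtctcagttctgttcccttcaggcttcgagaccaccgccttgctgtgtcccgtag
*TGFB1I1*, chr16:31472955-31473254, plus strand, box beginning 51 bases before the start: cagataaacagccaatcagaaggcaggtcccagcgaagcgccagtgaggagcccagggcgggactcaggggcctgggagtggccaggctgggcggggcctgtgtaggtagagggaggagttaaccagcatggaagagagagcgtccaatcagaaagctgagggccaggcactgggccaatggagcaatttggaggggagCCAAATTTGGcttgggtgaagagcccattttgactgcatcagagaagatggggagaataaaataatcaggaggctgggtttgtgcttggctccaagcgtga
*FLNA*, chrX:154374585-154374884, minus strand, box beginning 94 bases before the start: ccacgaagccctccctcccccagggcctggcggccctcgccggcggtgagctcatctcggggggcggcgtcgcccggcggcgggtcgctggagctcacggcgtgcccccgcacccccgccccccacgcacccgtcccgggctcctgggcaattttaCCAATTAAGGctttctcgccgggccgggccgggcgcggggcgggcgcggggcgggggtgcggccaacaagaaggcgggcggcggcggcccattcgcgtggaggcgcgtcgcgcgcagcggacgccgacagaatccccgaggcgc
In the *FHL2* windows printed and in those of *TGFB1I1* and *FLNA* the box began nearer to the start than in that of *LPP*.

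Genes of the same pathway outside the group were counted for comparison. Among 23 tested integrin subunits, the receptors to which the members bind, 7 were lower and 2 were higher at 24 h, with a median of −0.11. *ITGA6*, a laminin-binding subunit, had 0.41 ± 0.04, and *ITGB6*, an epithelial subunit, −0.80 ± 0.12. Among 87 other adhesion site genes, 42 were lower and 7 higher, with a median of −0.11, *FLNC* at −1.68 ± 0.09 and the FAK relative *PTK2B* at 0.54 ± 0.07. Among 23 serum response factor and actin genes, 18 were lower and 1 was higher, with a median of −0.57. The myosin light chain gene *MYL9* had −1.58 ± 0.06, and the immediate early gene *EGR1*, which was the one gene higher, had 0.65 ± 0.16. Thus, the members' 68.2% lower at 24 h lay above the 30.4% of integrin subunits and the 48.3% of other adhesion site genes. It lay below the 78.3% of the serum response factor and actin genes, and 12.8% of all genes were lower. These lists also differ in level, with median mean counts of 568, 3340 and 4860 in this order, against 2920 for the members and 521 for all genes. The differences were not tested, and shares at matched level were not taken.

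**Figure D4:**
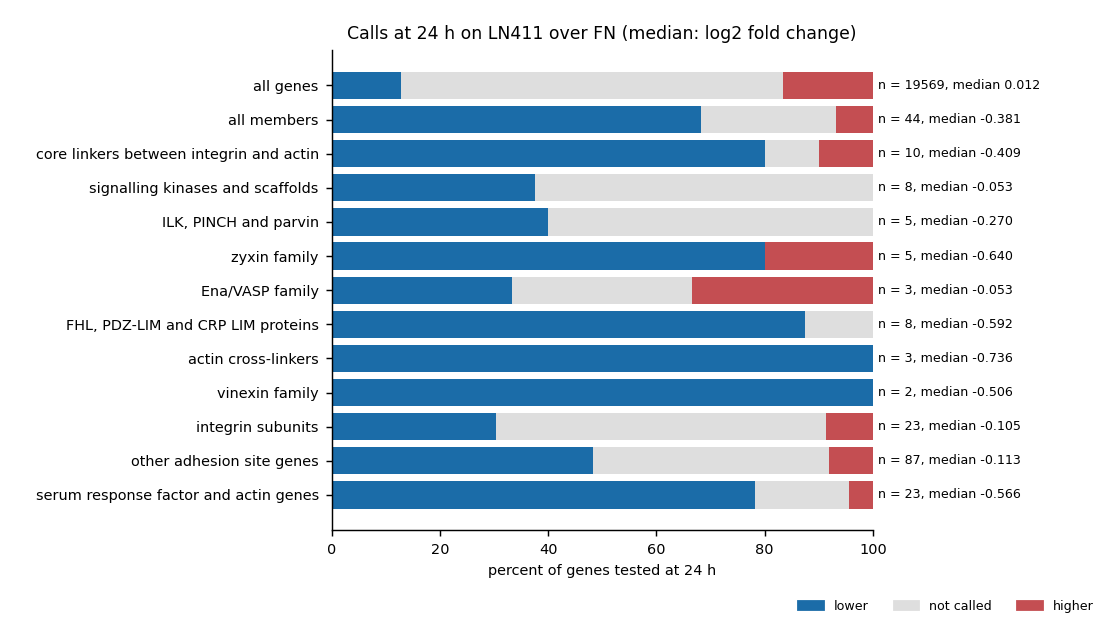
Percent of tested genes that were lower (blue), not called (grey) or higher (red) on LN411 at 24 h, for all genes, the members, their role groups and the related lists, with the number of genes and the median log2 fold change at the right. The share of lower genes is 12.8% for all genes and 68.2% for the members.

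Markers of cell types also moved at 24 h. Of the endocrine progenitor markers 8 of 9 were higher with a median of 1.54, led by *NEUROG3* at 2.54 ± 0.12, and of the pancreatic progenitor markers 6 of 13 were higher and none was lower, with *PDX1* at 0.60 ± 0.03. Of the hepatic markers, 5 of 6 were higher, with a median of 0.47. Of the smooth or striated muscle markers, 4 of 6 were lower, among them *CNN1* at −2.64 ± 0.19, while *MYH11* and *MYOG* were not listed and *DES* had a mean count of 6.47. The lower *CNN1* and *ACTC1* are also in the serum response factor and actin list counted above. Of the mesenchymal or stromal markers, 2 were lower and 2 higher of 10, with *VIM* at −0.91 ± 0.07 and *COL1A2* at 0.27 ± 0.03, and *DCN* was not listed. Of the endothelial markers 1 of 5 was higher, *EGFL7* at 0.38 ± 0.07 with a mean count of 2203, the other 4 had mean counts of at most 75, and *CDH5*, *TEK* and *CLDN5* were not listed at 24 h. Of the undifferentiated stem cell markers 1 of 5 was lower, *LIN28A* at −0.75 ± 0.05. The part of these cell types in the members' change was not tested, and in bulk RNA fewer cells of a type and less RNA per cell cannot be told apart.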

How the data were processed

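RNA of 18 samples was sequenced by the authors from poly(A)-selected libraries, aligned with STAR 2.7.2d to hg38 with the GENCODE v32 annotation and counted per gene. The authors compared LN411 with FN at each time with DESeq2 1.34.0, and the model formula is not given in the sources used here. In the deposited table, the mean normalized count is a signal the authors averaged over all samples, fold change and standard error are deposited log2 values, the Wald statistic is a score the authors derived from them, and the deposited p-value and adjusted p-value follow from that score. Fold change, error and mean were used as measurements. Wald p-values and their Benjamini-Hochberg adjustment were recomputed over the genes that passed the authors' filter, and 0 calls differed from the deposited ones.

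All 45 genes, the lists and the rule for genes described in full were chosen with earlier results of these data known. The rule took members called at 3 or 6 h, members called at 24 h with a change of at least 0.5 on the log2 scale, and the member with the highest mean count of each role. Values of other members and of markers were added after they were seen, and genes of related lists were named by the smallest p in each direction. Positions, transcript lengths and overlaps are from GENCODE v44 on GRCh38. The alternatives were an adjusted p under 0.01, a t distribution, centring, other filters, a limit on the fold change, trends with GC content and transcript length subtracted, and leaving out genes that overlap others. The scripts, tested on simulated data, ran in Python 3.11.15 with scipy 1.17.1, pandas 2.3.3 and numpy 2.4.6.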

Additional observations from a re-analysis of the deposited data

Results flagged for a closer look

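For 20 values of the members described in full, the LN411 effect differed between successive times by the test of the difference itself, with adjustment across every gene the table lists at the pair of times. Between 3 and 6 h this held for *AJUBA*, whose log2 fold change moved by −0.27. Between 6 and 24 h the log2 fold change moved by −1.49 for *LIMS2*, −1.25 for *CSRP1*, −1.07 for *TGFB1I1*, −0.85 for *ACTN4* and −0.81 for *PDLIM1*. The move was −0.72 for *FERMT1*, −0.62 for *SORBS2*, −0.59 for *PDLIM7*, −0.58 for *FLNA*, −0.56 for *CSRP2* and −0.51 for *AJUBA*. Smaller moves were −0.48 for *TRIP6*, −0.47 for *ZYX*, −0.38 for *LPP*, −0.33 for *FHL2*, −0.32 for *VCL*, −0.32 for *SORBS3*, −0.24 for *PDLIM5* and −0.20 for *PARVA*. Each of these 20 moves was toward a lower ratio of LN411 to FN. Of the remaining members, 7 also had a called move to a lower value between 6 and 24 h (*TLN1*, *TLN2*, *FERMT2*, *TNS3*, *BCAR1*, *VASP* and *ACTN1*), and *EVL* moved the other way by 0.23 (adjusted p = 0.0161). The move of *AJUBA* between 3 and 6 h was not called with a t distribution. *FERMT1* lay just inside the threshold (adjusted p = 0.0496).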

How the results depend on the processing

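No paired analysis was possible because no values per sample were used here, and for the same reason fits without single samples and other count normalizations were not run. The number of members lower at 24 h was 30 and became 28 with an adjusted p under 0.01, 28 with the t distribution and 16 with a limit of 0.5 on the log2 fold change, and the number higher was 3, against 1 with an adjusted p under 0.01, 1 with the t distribution and 0 with that limit. All genes at 24 h went from 2512 lower and 3268 higher to 1852 and 2403 with an adjusted p under 0.01. With the t distribution they were 1921 and 2488, and with the limit 890 and 808. Member counts with centring are given for the lower direction only. Since the subtracted medians lay above 0, centring lowered every fold change, which favours lower calls over higher ones. At 6 h the number of members lower was 5, against 1 with the t distribution, 9 with centring and 0 with the limit, and the number higher was 1, against 0 with the t distribution and 0 with the limit. All genes at 6 h went from 431 lower and 634 higher to 151 and 187 with the t distribution, and to 31 and 19 with the limit. At 3 h the number of members lower was 1, against 0 with the t distribution, 2 with centring and 0 with the limit. All genes at 3 h went from 35 lower and 32 higher to 6 and 2 with the t distribution, and to 3 and 0 with the limit. Of differences between times, the 1 member lower from 3 to 6 h became 0 with the t distribution. In the main test, 29 of 19875 genes were lower and 22 higher from 3 to 6 h. Counts over all genes with other settings are not given here for the differences, so the changes in member counts cannot be set against them. The 1 member higher from 6 to 24 h, and likewise from 3 to 24 h, became 0 with an adjusted p under 0.01 and 0 with the t distribution. With an adjusted p under 0.01, *FERMT1*, *FHL2*, *BCAR1* and *PARVA* lost their lower call from 6 to 24 h. From 3 to 24 h, *ILK* and *BCAR1* lost theirs. Centring subtracted the median of genes with a mean count of at least 1000, which was 0.01 for 3 h, 0.02 for 6 h and 0.02 for 24 h. It turned the split of all genes at 3 h from 35 lower and 32 higher to 46 and 23, at 6 h from 431 lower and 634 higher to 624 and 371, and at 24 h from 2512 and 3268 to 2873 and 2840. At 6 h, *PXN* was not called without the filter on low counts (adjusted p = 0.0613), and under the t distribution *VCL*, *LPP*, *FHL2* and *PXN* had adjusted p-values of 0.0862, 0.0513, 0.0848 and 0.156. *LIMS2* was below a mean count of 100 and was not tested with that filter. Leaving out *PXN*, *GIT2*, *ILK* and *LIMD1*, an alternative chosen after seeing the data, left 29 lower and 2 higher at 24 h. A count over all genes is not given here for this alternative. The causes were not tested.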
